A study of Mus musculus with 16 samples.

Results

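The genes described here are 10 neighbours on mouse chromosome 15, of 19938 genes measured, whose array signal differed between TNF knockout and C57BL/6 brains. In chromosome order they are Cpq, Laptm4b, Matn2, Cox6c, Spag1, Ankrd46, Rrm2b, Baalc, Fzd6 and Cthrc1. The order was read from the RefSeq annotation of GRCm38.p6, and since no build is named in the sources used here for the array table, positions are not given. A gene was read at a probe set that names only that gene, and at the one with the highest mean where several do. The members were chosen by their genotype differences in these same arrays, so those differences, and the counts past a threshold given with them, describe the choice and test nothing about the members.

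Whole brains of male mice aged 8 weeks were profiled on Affymetrix Mouse Gene 1.0 ST arrays. There were 4 groups of 4 arrays: naive C57BL/6, C57BL/6 after stroke, naive TNF knockout and TNF knockout after stroke. Stroke was a permanent occlusion of the middle cerebral artery, with the brain taken 24 h later, and there was no sham-operated group. All groups share the sex, age and tissue, and how the knockout was made and the strain it is kept on are not given in the sources used here. Each value is a deposited log2 signal, so a difference of log2 values is a fold change on the linear scale.

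The block mixes genes of unrelated function. Cthrc1 encodes a secreted protein with collagen triple helix repeats that is made by activated matrix-forming cells and acts with frizzled receptors in the planar cell polarity branch of Wnt signalling, and Fzd6 is one of those receptors. Matn2 encodes a matrilin, an adaptor of the extracellular matrix. Baalc is a membrane-associated protein of neural and blood-forming cells, Laptm4b is a lysosomal membrane protein, Cpq is a secreted carboxypeptidase, Rrm2b is the p53-induced small subunit of ribonucleotide reductase, Cox6c is a subunit of cytochrome c oxidase, and Spag1 takes part in the assembly of ciliary dynein arms. Ankrd46 encodes a membrane protein with ankyrin repeats.

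Across the series, array medians lay between 6.01 and 6.05 and arrays of 1 group correlated at 0.991 to 0.996. Tnf itself, the targeted gene, read 5.01 to 5.72 in the 8 C57BL/6 arrays and 6.14 to 6.99 in the 8 arrays labelled TNF knockout. That is higher, not lower, in the arrays labelled as knockout, by 1.11 ± 0.14 (SE, n = 4 per group) in naive mice and 1.24 ± 0.14 after stroke on the log2 scale. Whether the probe set lies within the deleted part is not given, so the targeted gene does not check the labels, and the groups are called by their label throughout. The sample names of all C57BL/6 arrays begin with KL42, and those of the knockout label with KL76 (naive 1 to 3, stroke 1) or KL82 (naive 4, stroke 2 to 4). What these name prefixes stand for is not given, and genotype and prefix cannot be told apart. Nothing in the labels says that the samples of a group came from separate mice, so the spread between arrays may be partly technical. The tissue label was checked against brain markers: the mean log2 value of 7 neuronal markers was 10.81 to 10.96 and that of 6 astrocyte markers 9.48 to 9.78.

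**Figure D1:**
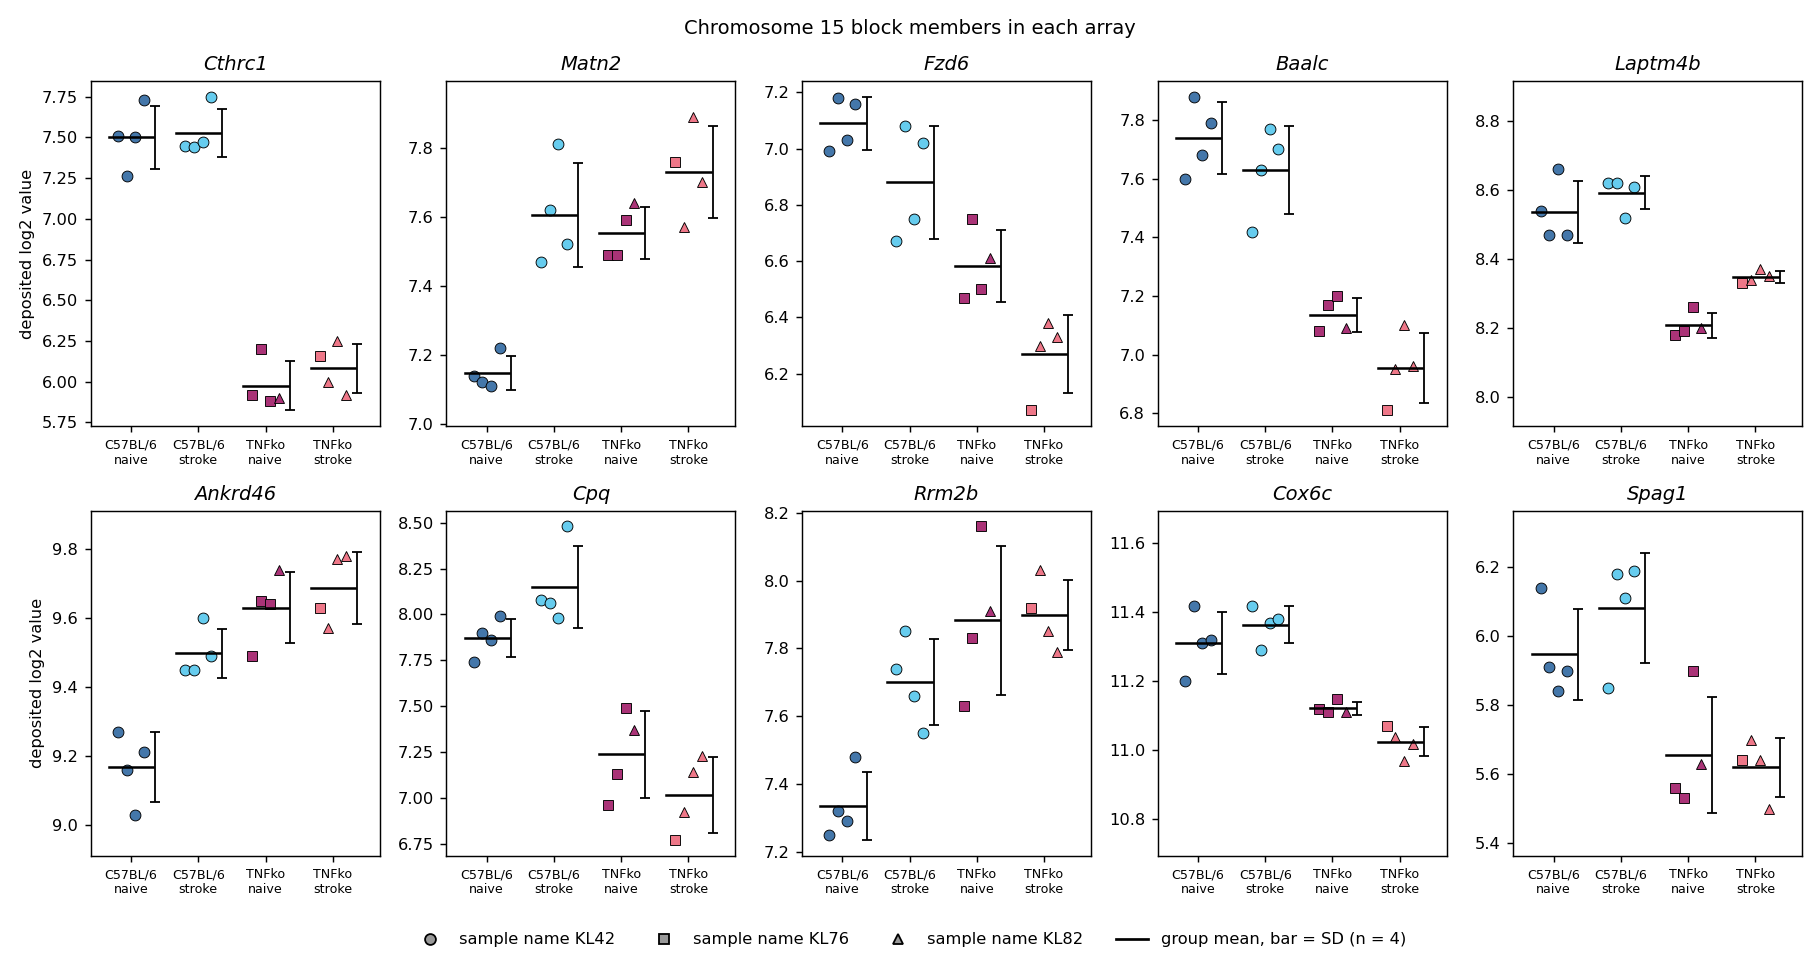
Deposited log2 value (vertical axis, scaled separately in each panel) of the 10 block members in each of 16 arrays, by group. Points are arrays, their shape is the name prefix, horizontal lines are group means and bars are SD (n = 4). Cthrc1, Baalc, Cpq, Laptm4b and Cox6c show all 8 arrays of the knockout label below all 8 C57BL/6 arrays, while in Matn2, Ankrd46 and Rrm2b the naive C57BL/6 group sits below the other groups.

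In the arrays labelled TNF knockout, 7 of the 10 members were lower than in C57BL/6 in both the naive and the stroke comparison, and 3 were higher in both. The 7 lower ones are Cthrc1, Cpq, Baalc, Fzd6, Spag1, Laptm4b and Cox6c, and the 3 higher ones are Matn2, Ankrd46 and Rrm2b. For 6 members (Cthrc1, Cpq, Baalc, Fzd6, Laptm4b and Cox6c) the genotype groups did not overlap in either state, in the same direction, which 0.963% of all genes did. In Cthrc1, Cpq, Baalc, Laptm4b and Cox6c all 8 arrays of the knockout label lay below all 8 C57BL/6 arrays. The share of all genes that do so was not counted, so nothing is read from it. In the fit over all genes (limma, adjusted p under 0.05) 8 members differed between naive genotypes, 3 higher and 5 lower, beside 0.386% of all genes, or 0.221% higher and 0.166% lower. After stroke 6 members differed, 0 higher and 6 lower, beside 0.436% of all genes, or 0.166% higher and 0.271% lower. Cpq, Baalc, Fzd6 and Cthrc1 did so in both states in the same direction, as did 0.125% of all genes. These shares are the background of the choice and nothing is read from them. When any 1 of the 8 naive arrays was left out, 2 to 5 members passed between the naive genotypes. The count over all 19938 genes then ran from 23 to 138, beside 77 with all arrays.

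Among the secreted and matrix proteins, Cthrc1 (probe set 10423836) had the largest difference of the block. Its log2 values were 7.51, 7.26, 7.50 and 7.73 in naive C57BL/6 and 7.45, 7.44, 7.47 and 7.75 in C57BL/6 after stroke. In the knockout label they were 5.92, 6.20, 5.88 and 5.90 in naive mice and 6.16, 6.00, 6.25 and 5.92 after stroke. The 2 genotypes are far apart in both states, and within a genotype the naive and stroke values overlap. The difference was -1.52 ± 0.11 (SE, n = 4 per group), a 2.88-fold lower signal, in naive mice, and -1.44 ± 0.11, 2.72-fold lower, after stroke. Knockout arrays of both prefixes were low. The difference from C57BL/6 was -1.50 for KL76 (3 arrays) and -1.60 for KL82 (1 array) in naive mice. After stroke it was -1.37 for KL76 (1 array) and -1.47 for KL82 (3 arrays). In order of level, naive and stroke C57BL/6 (means 7.50 and 7.53) did not differ beyond their spread, nor did naive and stroke arrays of the knockout label (5.98 and 6.08).

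Matn2 (probe set 10423599), the matrix adaptor, had another pattern. Its log2 values were 7.14, 7.12, 7.11 and 7.22 in naive C57BL/6 and 7.49, 7.49, 7.59 and 7.64 in the naive knockout label. After stroke they were 7.47, 7.62, 7.81 and 7.52 in C57BL/6 and 7.76, 7.57, 7.89 and 7.70 in the knockout label. Naive C57BL/6 is the low group: none of its arrays reaches any array of the other 3 groups, which overlap each other. The genotype difference was 0.40 ± 0.09 in naive mice and 0.12 ± 0.09 after stroke.

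Fzd6 (probe set 10423825), the Wnt receptor next to Cthrc1, read 6.99, 7.18, 7.03 and 7.16 in naive C57BL/6 and 6.67, 7.08, 6.75 and 7.02 in C57BL/6 after stroke. It read 6.47, 6.75, 6.50 and 6.61 in the naive knockout label and 6.07, 6.30, 6.38 and 6.33 in that label after stroke. The genotypes are apart within each state, the knockout label after stroke is the lowest group, and the highest naive knockout value of 6.75 reaches the lower C57BL/6 stroke arrays. The difference was -0.51 ± 0.10 (1.42-fold lower) in naive mice and -0.61 ± 0.10 (1.53-fold lower) after stroke. Of the 9 other frizzled genes measured, 0 passed the limma test in either genotype comparison, and 0 had an unadjusted p under 0.05, with differences from -0.28 to 0.13 in naive mice and -0.19 to 0.14 after stroke.

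Baalc (probe set 10423821), the membrane-associated protein and Fzd6's neighbour on the other side, read 7.60, 7.88, 7.68 and 7.79 in naive C57BL/6 and 7.42, 7.63, 7.77 and 7.70 in C57BL/6 after stroke. It read 7.08, 7.17, 7.20 and 7.09 in the naive knockout label and 6.81, 6.95, 7.10 and 6.96 in that label after stroke. All arrays of the knockout label are lower, and the naive and stroke values overlap within each genotype. The difference was -0.60 ± 0.09 (1.52-fold lower) in naive mice and -0.68 ± 0.09 (1.60-fold lower) after stroke.

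Laptm4b (probe set 10423593), the lysosomal membrane protein, had a small difference with little spread. It read 8.54, 8.47, 8.66 and 8.47 in naive C57BL/6 against 8.18, 8.19, 8.26 and 8.20 in the naive knockout label. After stroke it read 8.62, 8.62, 8.52 and 8.61 against 8.33, 8.34, 8.37 and 8.35. Both comparisons are without overlap, and within the knockout label all stroke arrays lie above all naive arrays. The difference was -0.33 ± 0.07 in naive mice and -0.24 ± 0.07 after stroke. Its relatives Laptm4a and Laptm5 passed the test in neither genotype comparison.

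Ankrd46 (probe set 10428171), the ankyrin repeat protein, read 9.27, 9.16, 9.03 and 9.21 in naive C57BL/6 and 9.49, 9.65, 9.64 and 9.74 in the naive knockout label. After stroke it read 9.45, 9.45, 9.60 and 9.49 in C57BL/6 and 9.63, 9.57, 9.77 and 9.78 in the knockout label. As with Matn2, naive C57BL/6 is low and apart from every other array, and the stroke groups overlap. The genotype difference was 0.46 ± 0.08 in naive mice and 0.19 ± 0.08 after stroke.

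Among the enzymes, Cpq (probe set 10423556), the carboxypeptidase at the other end of the block from Cthrc1, read 7.74, 7.90, 7.86 and 7.99 in naive C57BL/6 and 8.08, 8.06, 7.98 and 8.48 in C57BL/6 after stroke. It read 6.96, 7.13, 7.49 and 7.37 in the naive knockout label and 6.77, 6.92, 7.14 and 7.23 in that label after stroke. The genotypes do not overlap in either state. The difference was -0.64 ± 0.13 (1.55-fold lower) in naive mice and -1.14 ± 0.13 (2.20-fold lower) after stroke. By prefix it was -0.68 for KL76 (3 arrays) and -0.50 for KL82 (1 array) in naive mice. After stroke it was -1.38 for KL76 (1 array) and -1.05 for KL82 (3 arrays).

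Rrm2b (probe set 10428232), the ribonucleotide reductase subunit, read 7.25, 7.32, 7.29 and 7.48 in naive C57BL/6 and 7.63, 7.83, 8.16 and 7.91 in the naive knockout label. After stroke it read 7.74, 7.85, 7.66 and 7.55 in C57BL/6 and 7.92, 8.03, 7.85 and 7.79 in the knockout label. This is the pattern of Matn2 and Ankrd46 again, with naive C57BL/6 below all other arrays and the stroke groups overlapping. The genotype difference was 0.55 ± 0.10 (1.46-fold higher) in naive mice and 0.20 ± 0.10 after stroke. Rrm1 and Rrm2, the other subunits of the enzyme, passed the test in neither genotype comparison.

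Cox6c, the oxidase subunit, is the one member with more than 1 probe set. The brighter one (10400470) read 11.20, 11.42, 11.31 and 11.32 in naive C57BL/6 and 11.42, 11.29, 11.37 and 11.38 in C57BL/6 after stroke. In the knockout label it read 11.12, 11.11, 11.15 and 11.11 in naive mice and 11.07, 11.04, 10.97 and 11.02 after stroke. The arrays of the knockout label are lower without overlap, by 0.19 to 0.34 on the log2 scale in the group means (differences -0.19 ± 0.07 and -0.34 ± 0.07). The other probe set (10428119) gave -0.27 ± 0.09 and -0.31 ± 0.09. In the limma fits the brighter probe set passed the threshold after stroke only, and the other one in neither state. Small mitochondrial subunit genes have near-identical copies in the genome, so which copy each probe set reads is uncertain. The 13 other oxidase subunits measured had a median difference of -0.14 in naive mice and -0.12 after stroke, below 0 for 11 and 12 of them. Of these, 0 passed the limma test in either state. At an unadjusted p under 0.05 there were 3 in naive mice and 0 after stroke, beside 3317 and 2247 of all 19938 genes.

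Spag1 (probe set 10423745), the dynein arm assembly factor, read 6.14, 5.91, 5.84 and 5.90 in naive C57BL/6 and 5.56, 5.53, 5.90 and 5.63 in the naive knockout label. After stroke it read 5.85, 6.18, 6.11 and 6.19 in C57BL/6 and 5.64, 5.70, 5.64 and 5.50 in the knockout label. The stroke groups are apart, and the naive groups overlap through 1 knockout array at 5.90. The difference was -0.29 ± 0.10 in naive mice and -0.46 ± 0.10 after stroke. For all 10 members the difference had the same sign in arrays of both prefixes, in naive mice and after stroke. KL82 in naive mice and KL76 after stroke are 1 array each. The members were chosen on these same arrays, so the shared sign describes the choice and tests nothing. RNA came from whole brain, so fewer cells of a type and less RNA per cell cannot be told apart in any of these values.

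Cell type markers were compared between the genotypes in the same way. Of 51 markers measured for neurons, astrocytes, oligodendrocytes, their precursors, microglia, endothelium, pericytes and smooth muscle, fibroblasts and meninges, choroid plexus and ependyma, red blood cells, and neutrophils and monocytes, 0 passed the limma test between naive genotypes, with 6 at an unadjusted p under 0.05. After stroke 2 passed and 16 had an unadjusted p under 0.05. Over all 19938 genes, 3317 in naive mice and 2247 after stroke had such a p. The 2 were lower in the knockout label: Olig1, of the precursor list, at -0.44 ± 0.09 (limma adjusted p = 0.0238), and Cldn5, of endothelium, at -0.54 ± 0.11 (adjusted p = 0.0396). Both were named after their values were seen. The other precursor markers did not go with Olig1: Pdgfra stood at 0.07 ± 0.07 and Cspg4 at 0.05 ± 0.12. The other endothelial markers lay between -0.28 (Flt1) and -0.12 (Pecam1) and did not pass. All 4 oligodendrocyte markers measured had an unadjusted p under 0.05 after stroke and were below 0, with a median difference of -0.31, and 0 passed the limma test. Their mean level was 9.70 to 10.06 in C57BL/6 and 9.48 to 9.67 in the knockout label after stroke, without overlap, and 9.66 to 9.95 and 9.67 to 9.80 in naive mice, where the median difference was -0.17. The 5 microglial markers had a median difference of -0.21 after stroke and -0.08 in naive mice, with 0 past the test and 2 and 0 at an unadjusted p under 0.05. The part of these cells in the differences of the members was not tested.

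The 6 fibroblast and meningeal markers, cells in which Cthrc1 is known, had mean levels of 6.63 to 6.82 in naive C57BL/6, 6.78 to 6.90 in the naive knockout label, 6.70 to 6.98 in C57BL/6 after stroke and 6.78 to 6.99 in the knockout label after stroke. Their median genotype difference was 0.13 in naive mice, with single markers from -0.13 (Col3a1) to 0.33 (Slc6a13), and 0.10 after stroke. Of the 6, 0 passed the limma test, with 2 in each state at an unadjusted p under 0.05. Their part in the difference of Cthrc1 was not tested.

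**Figure D2:**
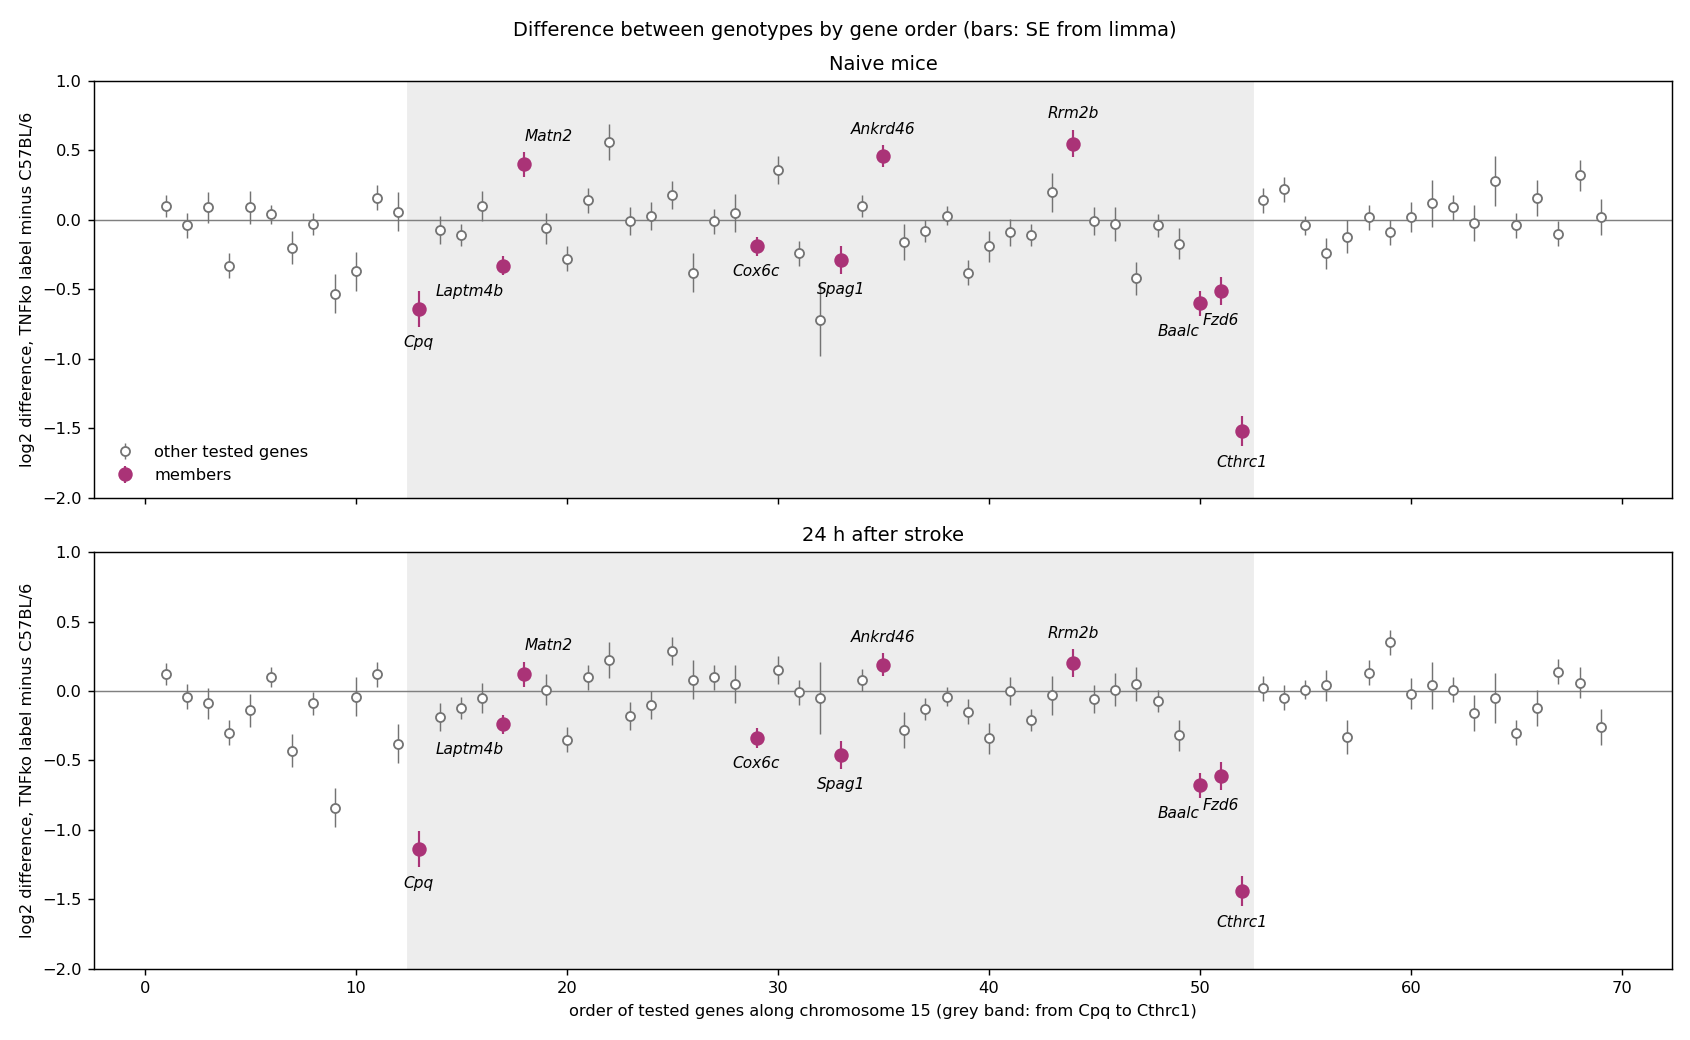
Difference in log2 value between the knockout label and C57BL/6 (vertical axis) for tested genes in their order along chromosome 15 (horizontal axis), in naive mice above and after stroke below. Filled points are the 10 members, open points other genes, bars SE from limma, and the grey band runs from Cpq to Cthrc1. Members with differences of either sign stand between other genes, most of them closer to 0, and Cpq and Cthrc1, at the 2 ends of the band, have the lowest values after stroke.

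The members are not a run of adjacent genes. Between Cpq and Cthrc1 the array measured 40 genes, of which 30 are not members. Only Laptm4b and Matn2, Baalc and Fzd6, and Fzd6 and Cthrc1 stand next to each other among tested genes; between the other neighbouring members lie 1 to 10 others. The neighbours Laptm4b and Matn2 differ in opposite directions, while Baalc, Fzd6 and Cthrc1, the last 3 genes of the block, are all lower in the knockout label. The median size of the difference was 0.48 for the members and 0.11 for the other 30 genes in naive mice, and 0.40 and 0.10 after stroke, beside 0.10 and 0.09 over all genes. Since the members were taken for their differences, 0 of the other 30 passing the test in either state follows from the choice. At an unadjusted p under 0.05 there were 8 in naive mice and 6 after stroke, beside 3317 and 2247 of all 19938 genes.

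Just inside the choice, Matn2 differed by 0.40 ± 0.09 in naive mice and Spag1 by -0.46 ± 0.10 after stroke. Just outside it, Rida, an enzyme that removes reactive imines, differed by 0.56 ± 0.13 in naive mice and 0.22 ± 0.13 after stroke. Rida read 9.48 to 9.82 in naive C57BL/6 and 9.96 to 10.31 in the naive knockout label, so its naive groups are apart too, in the manner of Matn2, Ankrd46 and Rrm2b. Rpl30, a ribosomal protein gene with many near-identical copies and so of uncertain origin, differed by -0.28 ± 0.09 and -0.35 ± 0.09, with groups apart in both states. Polr2k, a subunit of the RNA polymerases, had a difference of -0.72 ± 0.26 in naive mice, with overlapping groups, and -0.05 ± 0.26 after stroke. These genes were named after their values were seen.

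In the 5 Mb on each side of the block, 29 genes were tested in both genotype comparisons. In naive mice 0 passed and after stroke 1 gene passed, beside 0.386% and 0.436% of all genes. That gene is Atpsckmt, a mitochondrial lysine methyltransferase, on the Cpq side, named after its values were seen. It read 6.51, 6.48, 6.82 and 6.82 in naive C57BL/6 against 6.08, 5.91, 6.28 and 6.24 in the naive knockout label, and 6.53, 7.07, 6.97 and 7.23 against 5.83, 6.32, 6.15 and 6.13 after stroke. Its groups are apart in both states. The difference was -0.53 ± 0.14 in naive mice (limma adjusted p = 0.0852) and -0.84 ± 0.14 after stroke (adjusted p = 0.00462). Chromosome 15 as a whole, with 752 of the 19938 genes tested, held 5 of the 25 that passed in both genotype comparisons in the same direction. Of these, 4 are members. The fifth is A930017M01Rik, beyond the flank on the Cthrc1 side, at 0.52 ± 0.09 in naive mice and 0.58 ± 0.09 after stroke. Since the members were taken for such differences, nothing is read from this count.

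**Figure D3:**
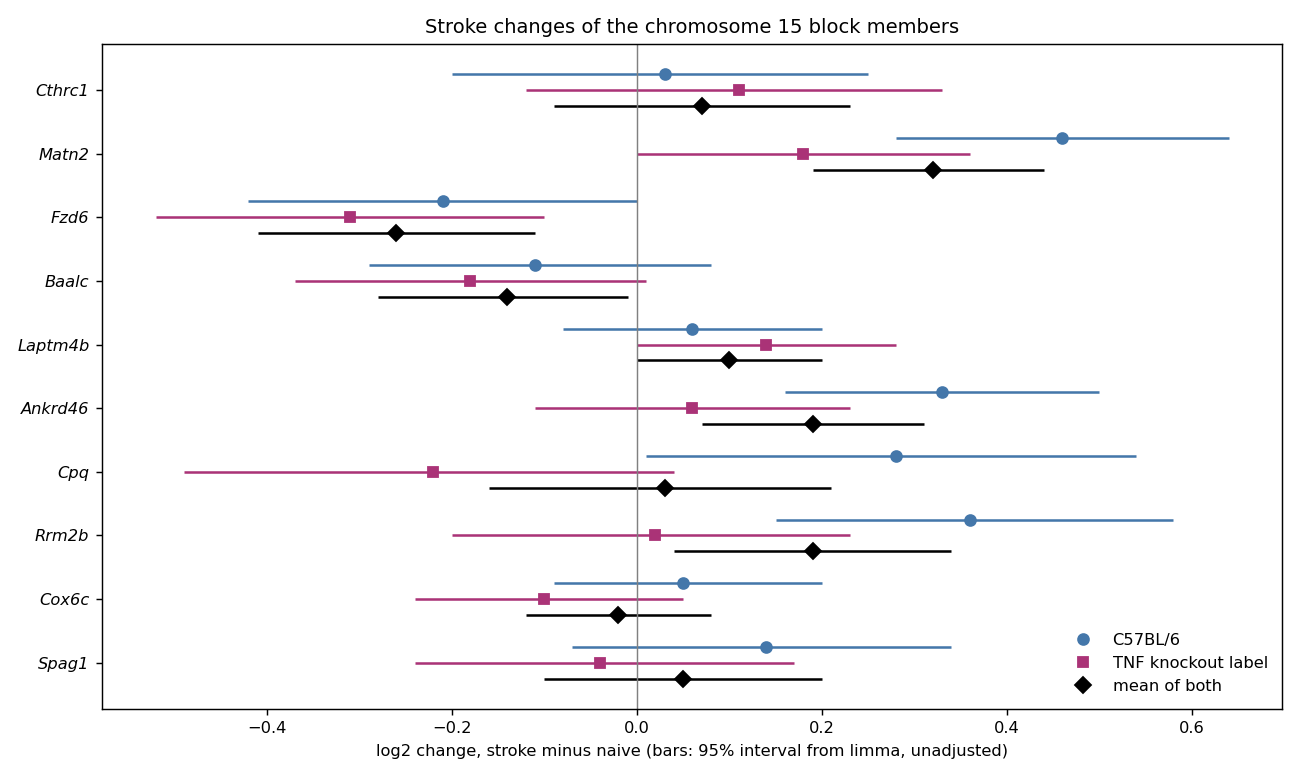
Change in log2 value from naive to stroke (horizontal axis) of each member in C57BL/6 (circles), in the knockout label (squares) and as the mean of both (diamonds), with unadjusted 95% intervals from limma. The mean change of Matn2 is the highest at 0.32, with an interval of 0.19 to 0.44, and that of Fzd6 the lowest at -0.26.

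The response to stroke was then compared. The mean of the stroke changes in C57BL/6 and in the knockout label weighs the genotypes equally. With 4 arrays in every group, its estimate is independent of both genotype differences by which the members were chosen. Its test uses the same estimate of each gene's spread as the genotype comparisons, so its p is not fully free of the choice. In this comparison 1 of the 10 members passed the test, beside 2.8% of all genes (1.78% higher and 1.03% lower). It was Matn2, which rose by 0.32 ± 0.06 (SE, 4 arrays in each of 4 groups), 1.25-fold, with a limma adjusted p = 0.00526. Matn2 also passed in all 16 fits that left out 1 array; the count of members was then 1 or, without C57BL/6 stroke array 2 or 4, 2. The median change over the members was 0.06, and their median size of change 0.12, beside 0.07 over all genes.

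The other 9 members did not pass. Fzd6 came closest at -0.26 ± 0.07 (95% interval -0.41 to -0.11, limma adjusted p = 0.0528). Ankrd46 stood at 0.19 ± 0.06 (0.07 to 0.31, adjusted p = 0.0771) and Rrm2b at 0.19 ± 0.07 (0.04 to 0.34, adjusted p = 0.18). For Cthrc1, with the largest genotype difference, the mean stroke change was 0.07 ± 0.08, with an interval of -0.09 to 0.23, so a change of the size of its genotype difference lies outside the interval. For Baalc it was -0.14 ± 0.06 (-0.28 to -0.01, adjusted p = 0.258), and for Cpq 0.03 ± 0.09 (-0.16 to 0.21). With the name prefix as a term in the fit, Matn2 stood at 0.31 (adjusted p = 0.018) and Fzd6 at -0.30, with an adjusted p of 0.0493 that passed the test.

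Taken within each genotype, the stroke changes share arrays with the genotype differences, so their values are set side by side. In C57BL/6 the naive and stroke groups did not overlap for Matn2, Ankrd46 and Rrm2b, all higher after stroke, which 8.26% of all genes did in either direction. The changes were 0.46 ± 0.09, 0.33 ± 0.08 and 0.36 ± 0.10. In the knockout label these genes stood at 0.18 ± 0.09, 0.06 ± 0.08 and 0.02 ± 0.10. There the groups without overlap were Laptm4b, higher by 0.14 ± 0.07, Cox6c at -0.10 ± 0.07, and Fzd6 at -0.31 ± 0.10, beside 5.87% of all genes.

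Because the same arrays also enter the choice of members, nothing is read from the counts that follow. In C57BL/6, Matn2 and Ankrd46 were among the 1.68% of all genes past the limma threshold, and with only the C57BL/6 groups fitted 0 members were. In the knockout label 0.642% of all genes were past it, with 0 members and 1 at an unadjusted p under 0.05. The difference between the stroke changes was -0.28 ± 0.12 for Matn2, -0.27 ± 0.11 for Ankrd46 and -0.35 ± 0.14 for Rrm2b. It was -0.50 ± 0.18 for Cpq, which stood at 0.28 ± 0.13 in C57BL/6 and -0.22 ± 0.13 in the knockout label, and 0.08 ± 0.15 for Cthrc1. This difference equals the genotype difference after stroke minus that in naive mice, so it is made of the values by which the members were chosen and is given as a description. Over all genes 0.0% passed the limma test of it, with 1480 at an unadjusted p under 0.05.

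Markers moved with stroke as well. Of the 51 markers 4 passed in the mean stroke change and 16 had an unadjusted p under 0.05, beside 3260 of all 19938 genes. Gfap, of reactive astrocytes, rose by 0.77 ± 0.10 (limma adjusted p = 0.000139), and Retnlg, of neutrophils, rose by 0.34 ± 0.07 (adjusted p = 0.0111). Tubb3, of neurons, stood at -0.27 ± 0.06 (adjusted p = 0.0157) and Rgs5, of pericytes, at -0.37 ± 0.08 (adjusted p = 0.0166). Each is a single marker of its list. The other astrocyte markers lay between -0.15 (Slc1a2) and 0.04 (Aldh1l1), and the other neuronal markers between -0.10 (Rbfox3) and 0.03 (Stmn2). Other pericyte and smooth muscle markers lay between -0.50 (Acta2) and 0.08 (Kcnj8), and other neutrophil and monocyte markers between 0.07 (S100a9) and 0.37 (S100a8). The 6 fibroblast and meningeal markers, which share matrix production with Matn2, had 0 of 6 past the limma test, with 2 at an unadjusted p under 0.05, and a median of -0.01. They were spread from -0.10 (Slc6a13) to 0.44 ± 0.13 (Dcn, limma adjusted p = 0.0672). Lum stood at 0.20 ± 0.10, and the collagens lay between -0.08 (Col1a2) and 0.0 (Col3a1). The part of these cell types in the change of Matn2 was not tested.

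Few genes of the lists drawn up around the members passed in the same comparison. The list around Cthrc1 and Fzd6 has 30 planar cell polarity and Wnt receptor genes, the 9 other frizzled genes among them. Of the 30, 0 passed the limma test and 7 had an unadjusted p under 0.05, beside 3260 of all 19938 genes. Their median mean stroke change was -0.06. Of 20 matrix genes, 5 of them also among the fibroblast markers, 0 passed and 4 had an unadjusted p under 0.05, with a median of -0.01. The 3 other matrilins measured lay between -0.05 and -0.01. Of 19 oxidase subunit and assembly genes and of 14 genes of deoxynucleotide supply and p53 targets 0 passed, with 1 and 5 at an unadjusted p under 0.05 and medians of -0.03 and 0.06.

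Of 20 genes listed around Laptm4b and Cpq, which mix lysosomal genes with carboxypeptidases and transporter chains, 2 rose and 0 fell. Lamp2, a lysosomal membrane glycoprotein, rose by 0.26 ± 0.06 (limma adjusted p = 0.0146), and Slc3a2, the heavy chain of an amino acid transporter, rose by 0.24 ± 0.05 (adjusted p = 0.0179). Laptm4b itself stood at 0.10 ± 0.05 (adjusted p = 0.314). Of 19 dynein arm and cilia genes 0 rose and 1 fell, Dnah5, a dynein heavy chain that lies on chromosome 15 in the flank on the Cpq side (-0.20 ± 0.05, adjusted p = 0.0494). In both genotype comparisons 0 of the 122 genes of these lists passed the limma test. An unadjusted p under 0.05 was found for 23 in naive mice and 13 after stroke, beside 3317 and 2247 of all 19938 genes.

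The members did not vary as 1 unit from array to array. After the group means were removed, the 45 pairs of members had correlations from -0.35 to 0.63 over the 16 arrays, with a median of 0.11, beside a median of 0.01 over all pairs of genes. A correlation of at least 0.5 was found in 4.44% of member pairs, namely Matn2 with Ankrd46 (0.63) and Baalc with Fzd6 (0.59), and in 6.5% of all gene pairs. These arrays share their groups, platform and normalization, and the values are descriptions.

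Over the 16 arrays without that removal, the genes outside the block most like Cthrc1 in absolute correlation were Catspere2 (-0.96), A930017M01Rik (-0.96) and Lpl (-0.95). All 3 run opposite to it: Catspere2 was higher in the knockout label by 1.10 in naive mice and 1.47 after stroke, and Lpl by 1.03 and 0.83. For Baalc they were Entpd4 (-0.93), Nnt (0.93) and Mau2 (-0.92), and for Cpq Snapc1 (0.95), Bpnt1 (0.94) and Rab3gap2 (-0.93). The distance between the genotypes enters all of these values. In deviations from the group means the nearest genes were others: Ptpn18, Bpifb1 and Gem for Cthrc1 (0.82 each), Epc2, Zhx1 and Dock1 for Baalc (0.88 each), and Gtf2h5 (0.94), 2310057M21Rik (0.94) and Gnpda2 (0.93) for Cpq. In the deviations, the 6 genes named for Cthrc1 and Baalc over all 16 arrays lay between -0.60 and 0.20, and those named for Cpq were at 0.79 (Snapc1), 0.72 (Bpnt1) and -0.64 (Rab3gap2).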

How the data were processed

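The deposited table holds log2 signals of 28944 probe sets in 16 arrays, made by the authors; the submitters' processing notes name GCOS, RMA, GCRMA and Partek, without saying which gave these values. Of these probe sets, 21789 name 1 gene, 1621 several and 5534 none in the platform annotation; only the first were used, at the probe set with the highest mean, for 19938 genes. Values were used as deposited, with no filter. A linear model of the 4 group means was run across all genes (R 4.3.3, limma 3.58.1). Its variances were moderated by empirical Bayes, with 12 degrees of freedom from the residuals and 7.52 from the prior. Tests were two-sided, with Benjamini-Hochberg adjustment over 19938 genes and a threshold of 0.05. Tables were handled in Python 3.11.15. The number of arrays limits the precision.

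The members and the gene lists were chosen with earlier results of these data known. Named genes are the 10 members, list genes with the smallest p in the mean stroke change and relatives of members, for Cthrc1, Baalc and Cpq the 3 most correlated genes, genes within 5 Mb past the threshold in both genotype comparisons (0 found), and Tnf; exceptions are marked. Alternatives changed the normalization, dim-gene filter, probe set rule, variance model, array weights, threshold, arrays fitted, replicate number, name prefix and block limits, and left out each array. Promoter and protein sequences of the members were not analysed here.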

Additional observations from a re-analysis of the deposited data

Results flagged for a closer look

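Of 40 sets of 4 arrays (10 members in 4 groups), 3 held an array far from the other 3, by a gap to its neighbour beyond Dixon's 95% limit; chance alone marks about 1 in 20 sets. Laptm4b read 8.52 in 1 C57BL/6 stroke array, below 8.61 to 8.62 in the others. Cthrc1 read 7.75 in 1 C57BL/6 stroke array, above 7.44 to 7.47 in the others. Cthrc1 also read 6.20 in 1 naive array of the knockout label, above 5.88 to 5.92 in the others. Each of the 3 arrays stayed on its own genotype's side.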

How the results depend on the processing

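Of 1530 values of single members under other settings, 1431 kept their side of the threshold, 84 lost it, 15 gained it and 0 called values changed sign. The 1 member called in the mean stroke change became 2 with quantile normalization, median centring, array weights, the replicate block and the name prefix term, and 3 without the 30% dimmest genes or with trended and robust variances; leaving out 1 array gave 1 to 2. Matn2 passed there in all 9 alternative fits and all 16 fits without 1 array (adjusted p 0.00193 to 0.018); Fzd6 passed in 6 of 9 and 2 of 16. The 2 members called for stroke in C57BL/6 became 1 with quantile normalization, median centring or a threshold of 0.01, and 0 with only the groups compared; without 1 array there were 1 to 3, and 1 without any naive C57BL/6 array, C57BL/6 stroke array 2, 3 or 4, knockout-label naive array 2 or stroke array 3 or 4. There Matn2 held in 8 of 9 alternative fits (adjusted p 0.0523 with only the groups compared) and in all 16 without 1 array, Ankrd46 in 6 of 9 and 5 of 16. The 8 members called between naive genotypes became 2 at 0.01 and 5 with only the groups compared, and 2 to 8 without 1 array (2 to 5 without any 1 of the 8 naive arrays). After stroke the 6 ranged from 4 to 6. The other 30 genes of the block went from 0 to 1 called in naive mice without the dimmest genes, with trended and robust variances, array weights, only the groups compared or the replicate block (0 to 1 without 1 array), and to 1 after stroke with trended and robust variances.

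The labels do not say that a replicate number marks anything shared. Deviations of same-numbered arrays correlated at -0.075 to 0.34, above 0.1 in 10 of 24 pairs. An array was closest to its own number in 27 of 48 comparisons with another group of 4 arrays. A number that marks nothing would be closest in about 1 in 4, so the count is above that rate. The fit as reported does not use the number, since nothing it marks is named, and the replicate block is given among the alternatives. Whether arrays of the same number share a batch was not tested. Over all genes, counts that moved by over 1.5 times were, without the dimmest genes, 518 for stroke in C57BL/6 (334 in the fit as reported), 185 between naive genotypes (77) and 156 after stroke (87). With trended and robust variances they were 516 for stroke in C57BL/6, 162 between genotypes after stroke and 4 for the difference of stroke changes (0). Array weights gave 212 for stroke in the knockout label (128) and 1 for the difference. At a threshold of 0.01 there were 76 and 54 for stroke in C57BL/6 and the knockout label, 217 for the mean (559), and 20 and 36 between genotypes; with only the groups compared, 98 for stroke in C57BL/6 and 51 and 46 between genotypes. The replicate block gave 559 for stroke in C57BL/6, 141 between naive genotypes and 1 for the difference, and the prefix term 72 for stroke in the knockout label and 332 for the mean. Leaving out 1 array gave 107 to 639 for stroke in C57BL/6, 69 to 145 in the knockout label, 369 to 629 for the mean, 0 to 3 for the difference, and 23 to 138 and 47 to 120 between genotypes. The cause of these shifts was not tested. With 4 arrays per group, the unadjusted intervals printed above show the precision. A stroke change smaller than the distance from its estimate to an end of its interval cannot be told from none.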
